A study of Drosophila melanogaster with 7 samples.

Results

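The glutathione S-transferase (Gst) family was followed in single-cell transcriptomes of adult male *Drosophila* central brains. Members were taken by name, as every gene whose symbol is *Gst* followed by a class letter (D, E, O, S, T or Z) and a number, which gave 35 of the 16764 genes listed. They comprise 11 Delta, 14 Epsilon, 3 Omega, 4 Theta and 2 Zeta genes and the only Sigma gene, *GstS1*. Each of the 7 runs was 1 library of dissected central brains, pooled from 5 to 9 of 10 wild-type inbred lines of the *Drosophila* genetic reference panel (DGRP), aged 4 to 9 days and taken in 2 to 4 of 12 conditions at Zeitgeber time (ZT) 2, 8, 14 or 20. The conditions were spontaneous sleep or wakefulness, mechanical sleep deprivation, the recovery sleep after it, a yoked control and sleep induced by gaboxadol, a GABA agonist. Brains of all runs were dissected with the transcription inhibitor actinomycin D and dissociated by proteases. The labels give all 7 runs the same tissue, mixed genotype and various treatments, and no cell was joined to a line, ZT time or sleep state. Runs therefore serve as replicates of 1 group, p-values measure the spread between these libraries, and line, time and state cannot be told apart from run. Cell types were compared within runs.

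Cytosolic Gsts join the thiol of glutathione to reactive, electrophilic compounds, which makes them more soluble and readies them for export. They act on insecticides, plant toxins and aldehydes from oxidized lipids, and several also reduce peroxides or isomerize metabolites. In insects the Delta and Epsilon classes are expanded and best known for insecticide resistance, whereas Omega, Sigma, Theta and Zeta classes occur across animals. In the fly brain, glia border the hemolymph and the neuropil, and the blood-brain barrier carries many of the enzymes and transporters that handle foreign compounds.

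Most members lie in gene clusters. In the Ensembl annotation of BDGP6, the 11 Delta genes occupy 20.8 kb of 3R (12364776 to 12385624), in the order *GstD10*, *GstD9*, *GstD1*, *GstD2* to *GstD8* and *GstD11*. The 10 Epsilon genes *GstE1* to *GstE10* occupy 13.2 kb of 2R (18396638 to 18409835), with *GstE11* further on at 18503608 to 18505025. *GstE12*, *GstE13*, *GstE14* and *GstS1* stand alone on the same arm, *GstT1* and *GstT2* are neighbours there, and *GstT3* and *GstT4* are on X. The Omega genes share 5.98 kb of 3L (8518885 to 8524866) and the Zeta genes 5.14 kb of 3R (9455517 to 9460652). Neighbours in these clusters are related copies, and how the counting divided reads between near-identical stretches was not examined, so that values of single Delta and Epsilon genes carry that uncertainty. The annotated spans of *GstE1* and *GstE10* overlap, as do those of *GstE9* and *imd*, *GstE12* and *CG3894*, *GstE13* and *CG18659*, *GstT2* and *CG12926*, and *GstO2* and *se*.

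The runs held 49949595 to 311443505 unique molecular identifiers (UMIs, which count each captured transcript 3′ end once), and 139919 of 164038 barcodes were kept. Clusters were built without Gst genes and without the genes of the glutathione list at the end, and were named by other markers. They gave 2839 astrocyte-like glia (ALG), 2594 ensheathing glia (EG) and 928 perineurial glia (PG) among 10041 glia, 5804 α/β-, 5768 γ- and 2245 α′/β′-Kenyon cells (KCs) among 14013 KCs, 110 hemocytes and 108280 other neurons. The naming of clusters was rebuilt here and may differ from the names in the study, and 3680 glia, with a median of 836 UMIs, took no subtype name. Barcodes reached down to 500 UMIs in runs 1, 5, 6 and 7 and to no less than 2658 to 2914 UMIs in runs 2, 3 and 4, so that shallower cells came from runs 1, 5, 6 and 7 only. Clusters with more than 75% of their cells from 1 run numbered 11, of which 8 came from run 3, and 2199 barcodes occurred in more than 1 run.

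Levels are given as CPM (counts of a gene per 1000000 UMIs of a cell type in a run), without division by gene length, as mean ± SD over runs. Differences are log2 fold changes ± SE from edgeR's quasi-likelihood test with the run as a block, with p-values adjusted by Benjamini-Hochberg over all genes tested and a threshold of 0.05. Droplet libraries can hold RNA that did not come from the captured cell, and its level was read from the ALG and EG markers *alrm*, *Eaat1*, *wun2*, *CG9657* and *Gat* in other neurons. Free RNA, remaining doublets and expression of the markers in neurons were not told apart. After thinning each cell to 500 UMIs, 0.398% (*wun2*) to 2.79% (*Gat*) of other neurons had a UMI of these markers (4.51% to 24.9% unthinned, median depth 6010 UMIs against 3041 in glia). The markers' level in other neurons was 1.63% to 5.75% of their level in all glia, and *alrm* in other neurons ranged from 7.45 CPM in run 6 to 60.8 CPM in run 4.

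Glia carried far more of the family's transcripts per UMI than KCs and other neurons. The sum over the 35 members was 4626 ± 1784 CPM in ALG, 4388 ± 1388 CPM in EG and 2799 ± 834 CPM in PG (SD, n = 7 runs). In γ-KCs it was 1044 ± 222 CPM, in α′/β′-KCs 602 ± 46.4 CPM and in α/β-KCs 354 ± 104 CPM. Hemocytes held 1976 ± 1337 CPM (n = 5 runs with at least 5 hemocytes), and other neurons 254 ± 42.1 CPM. All glia together ranged from 2589.5 to 5586 CPM over runs and other neurons from 203 to 307 CPM, so these groups did not overlap, whereas ALG (2579 to 7140 CPM) and EG (2818 to 6203 CPM) overlapped. Hemocytes (757 to 3753 CPM) overlapped with all glia. The sum was unevenly shared. The 5 highest members made up 90.7% of it in ALG, 85.8% in EG, 75.8% in PG, 89.4% in γ-KCs and 60.8% in other neurons. Delta and Epsilon genes together held nearly the whole sum in ALG (49.6% and 48.5%), but a smaller part in other neurons (24.6% and 33.1%), where Omega genes took 18.6%, Zeta genes 10.7% and Theta genes 9.47%.

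**Figure D1:**
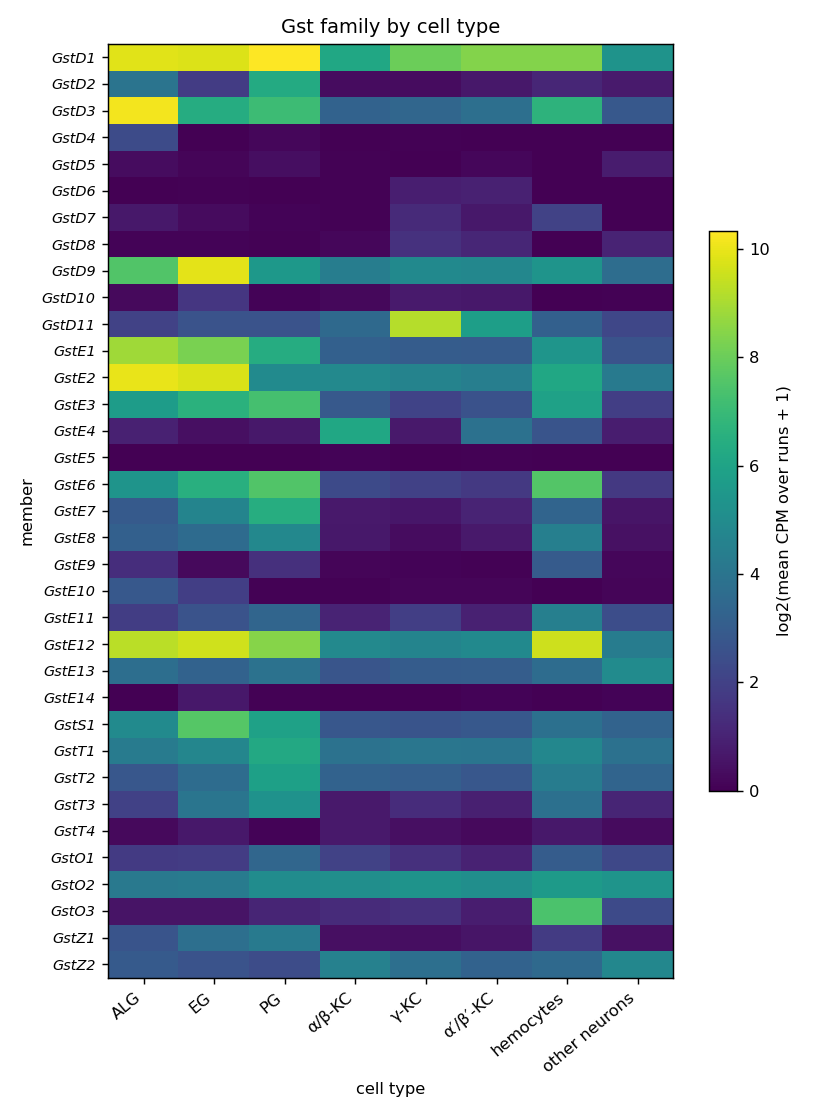
Heat map of the 35 members (vertical axis, by class) in 8 cell types (horizontal axis), coloured by log2 of the mean CPM over runs plus 1. Among the highest values are *GstD1* in all 3 glial subtypes (936 CPM in ALG, 886 in EG and 1293 in PG), *GstD3* in ALG (1149 CPM), *GstD9* in EG (951.5 CPM) and, outside glia, *GstD11* in γ-KCs (583 CPM) and *GstE12* in hemocytes (738.5 CPM).

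The comparison of glia with other neurons asked which members make up the glial excess. Of 26 members tested, 21 were higher in glia and 4 lower. Among all 8706 genes tested, 36.5% were higher and 37.8% lower. The median log2 difference was 4.999 for the tested members and −0.06 for all genes. *GstD1*, which can dehydrochlorinate DDT and is widely used as a reporter gene of oxidative stress, had 635, 863 and 1472 CPM in glia (lowest, median and highest run) and 23.7, 30.9 and 58.6 CPM in other neurons. The lowest glial value was above the highest neuronal value, and the log2 difference was 5.24 ± 0.41 (adjusted p = 7.46e-06, edgeR).

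*GstD3* showed the largest fitted difference. It had 222, 286 and 520 CPM in glia (lowest, median and highest run) against 1.37, 3.04 and 15.5 CPM in other neurons, a difference of 6.61 ± 0.64 (adjusted p = 2.5e-05, edgeR). Its highest neuronal value came from run 4, the run with the highest *alrm* in neurons as well. *GstE12* followed the same order of groups with 420, 742 and 907 CPM against 8.64, 12.7 and 39.0 CPM (5.84 ± 0.55, adjusted p = 2.01e-05), and *GstE2* with 376, 834 and 930 CPM against 8.65, 12.4 and 32.1 CPM (5.96 ± 0.58, adjusted p = 2.48e-05). None of these groups overlapped. *GstD9* (535 ± 281 against 11.8 ± 5.50 CPM), *GstE1*, known to conjugate the lipid aldehyde 4-hydroxynonenal (268 ± 80.0 against 5.21 ± 3.06 CPM), *GstE6* (105 ± 31.6 against 2.32 ± 1.36 CPM), *GstE3* (104 ± 28.3 against 2.74 ± 1.43 CPM) and *GstE7* (33.7 ± 12.0 against 0.480 ± 0.289 CPM) were higher by 5.84 to 6.52 on the log2 scale.

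Members with lower levels went the same way. *GstS1*, a Sigma enzyme related to the prostaglandin D synthases of vertebrates, had 116 ± 47.8 CPM in glia and 8.91 ± 1.71 CPM in other neurons (4.10 ± 0.38, adjusted p = 1.9e-05). *GstD2* (23.0 ± 14.7 against 0.683 ± 1.23 CPM), *GstT3* (16.1 ± 3.33 against 1.11 ± 0.248 CPM), *GstE8* (14.4 ± 3.70 against 0.375 ± 0.268 CPM), *GstZ1* (11.2 ± 3.79 against 0.394 ± 0.200 CPM) and *GstE10* (2.76 ± 1.90 against 0.0898 ± 0.0635 CPM) also had glial values above all neuronal ones. *GstT1* (33.5 against 13.5 CPM) and *GstT2* (20.5 against 9.21 CPM), neighbours on 2R, were higher by 1.83 and 1.59 only, though again in 7 of 7 runs. PG held 429 of the 697 glial UMIs of *GstT2*. After thinning, 2.44% of PG had a UMI of it, but 0.394% of ALG and 0.41% of EG, below the 0.46% of other neurons. For *GstT1* the shares were 3.32% of PG, 1.01% of ALG and 1.28% of EG, all above the 0.648% of other neurons.

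The small differences were less firm. *GstD11* was higher in glia by 0.96 (5.06 against 3.62 CPM, adjusted p = 0.000515, 6 of 7 runs). *GstE11* (0.76, adjusted p = 0.0117) and *GstO1* (0.50, adjusted p = 0.0138) had higher CPM in glia in 4 of 7 runs, and their mean log2 CPM differences in runs 1 to 4 and runs 5 to 7 had opposite signs, 0.45 and −0.56 for *GstE11* and −0.09 and 0.26 for *GstO1*. With library totals alone in place of scaling factors, *GstE11* had an adjusted p of 0.256 and *GstO1* of 0.903. The scaling factors of edgeR moved all glia against other neurons by 0.49 on the log2 scale, so that differences of that size depend on them, while no called member changed direction without them.

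For *GstD3*, *GstE1* and *GstE2* the neuronal level, as a share of the glial level, was in the range of 4 of the 5 glial markers. The mean level in other neurons was 1.92% of that in glia for *GstD3*, 1.95% for *GstE1*, 2.50% for *GstE2*, 2.81% for *GstE12* and 3.81% for *GstD1*. The markers *alrm*, *wun2*, *CG9657* and *Gat* had 1.63% to 2.58%, so that *GstE12* and *GstD1* lay above these and below the 5.75% of *Eaat1*. After thinning, 1.502% of other neurons had a UMI of *GstE2*, 1.62% of *GstE12* and 2.11% of *GstD1* (14.8%, 15.8% and 19.6% unthinned), below the 2.23% for *alrm* (19.9% unthinned). For *GstE2* and *GstE12* these shares cannot tell expression in neurons from background, which was not tested. *GstD1* was high in single neuronal clusters. *GstS1* and *GstT3* lay slightly above the markers with 7.69% and 6.92% of the glial level, and *GstT1* and *GstT2* far above with 40.3% and 44.9%.

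A further set of members was higher in neurons than in glia. *GstE13* had 8.80, 9.95 and 13.9 CPM in glia (lowest, median and highest run) and 27.3, 29.8 and 36.3 CPM in other neurons, a difference of −1.001 ± 0.098 (adjusted p = 2.62e-05, edgeR). *GstZ2*, of the class that isomerizes maleylacetoacetate in tyrosine breakdown, had 3.83, 4.22 and 9.39 CPM against 20.1, 27.9 and 33.1 CPM (−1.63 ± 0.22, adjusted p = 0.000174). *GstO2* had 17.9, 21.5 and 25.5 CPM against 31.3, 41.0 and 44.7 CPM (−0.35 ± 0.07, adjusted p = 0.00161). In all 3 the groups did not overlap in CPM. *GstO3* was lower still in glia, with 31 UMIs in all glia and none in runs 5, 6 and 7, against 3.96 ± 0.413 CPM in other neurons (−2.01 ± 0.36, adjusted p = 0.000896). The Zeta genes thus lay on opposite sides, *GstZ1* in glia and *GstZ2* in neurons, although they are neighbours. *GstO2*, *GstD1*, *GstE13* and *GstZ2* were the highest members in other neurons, at 39.4, 38.3, 30.9 and 26.9 CPM. The remaining member tested, *GstE4*, did not pass (0.600 against 0.784 CPM, adjusted p = 0.782).

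**Figure D2:**
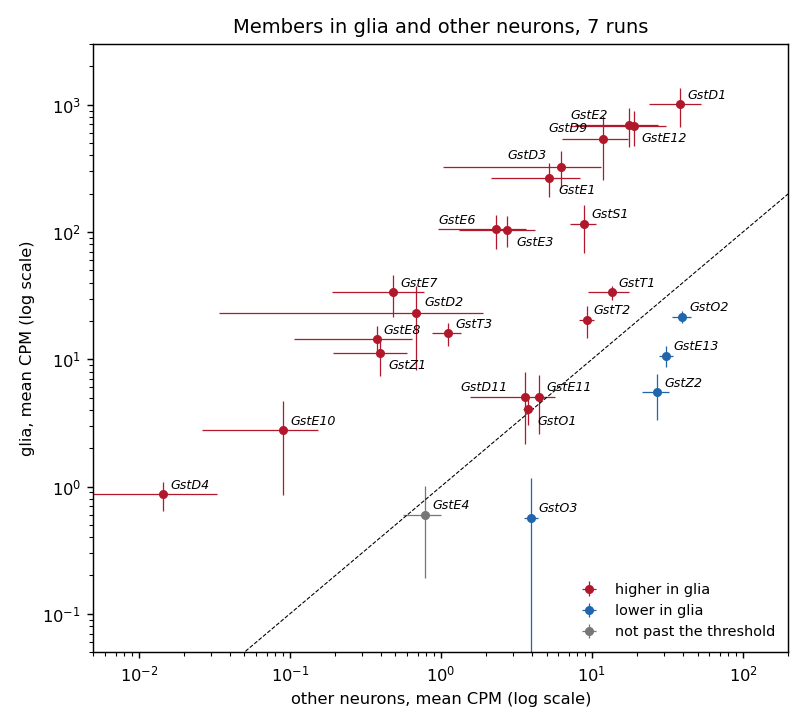
Mean CPM over 7 runs in glia (vertical axis, log scale) against other neurons (horizontal axis, log scale) for the 26 members tested. Bars are SD over runs (cut short of 0), the dashed line marks equal CPM, and colour gives the call. Points far above the line are Delta and Epsilon genes with *GstS1*, *GstT3* and *GstZ1*, whereas *GstO2*, *GstE13*, *GstZ2* and *GstO3* lie below it.

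ALG fill the neuropil and surround synapses, while EG wrap neuropil regions and tracts. Their summed levels were alike, but members were distributed differently. Of 13 members tested between EG and ALG, 6 were higher and 2 lower in EG. Over all 5517 genes, 18.1% were higher and 12.5% lower, and the median difference was 0.25 for members and −0.04 for all genes. *GstD3* had 1217, 525, 628, 787, 819, 1854 and 2212 CPM in ALG of runs 1 to 7 and 43.9 to 115.3 CPM in EG. Every ALG value was above every EG value, with a difference of −3.55 ± 0.15, an 11.7-fold lower level in EG (adjusted p = 2.82e-12, edgeR). *GstD3* was the highest member of ALG and was among the 10 leading genes by fold of the larger of the 2 ALG clusters.

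*GstD9*, on the other side of *GstD1* in the Delta cluster, had the opposite pattern. It had 1354, 521, 598, 586, 736, 1187 and 1679 CPM in EG of runs 1 to 7 and 131 to 296 CPM in ALG. The groups did not overlap, and EG was 4.65-fold higher (2.22 ± 0.10, adjusted p = 2.82e-12, edgeR). *GstS1* had 118, 193 and 294 CPM in EG (lowest, median and highest run) and 24.1, 28.6 and 45.0 CPM in ALG, again without overlap and 5.39-fold higher in EG (2.43 ± 0.12, adjusted p = 5.89e-12). *GstE7* (24.0 against 6.51 CPM, 2.13), *GstE6* (89.8 against 39.5 CPM, 1.23) and *GstE3* (96.9 against 51.8 CPM, 0.94) were higher in EG in 7 of 7 runs, with ranges that overlapped.

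The most abundant shared members differed little. *GstD1* (886 against 936 CPM, −0.09 ± 0.08, adjusted p = 0.438) and *GstE2* (864 against 1030 CPM, −0.21 ± 0.09, adjusted p = 0.102) did not pass the test, nor did *GstT1*, *GstO2* and *GstE13*. *GstE12* was higher in EG by 0.32 (762 against 621 CPM, adjusted p = 0.013) and *GstE1* lower (302 against 461 CPM, −0.48, adjusted p = 0.0101), but both missed the threshold without the replicate block and with cells of at least 3000 UMIs.

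PG form the outermost glial sheet, facing the hemolymph. Of 18 members tested against EG, 11 were higher and 5 lower in PG (24.8% and 22.5% of 5574 genes), and of 17 tested against ALG, 11 were higher and 5 lower (27.3% and 30.3% of 4884 genes). Member medians were 0.69 and 0.86, against −0.02 and −0.08 over all genes. Both contrasts use the same PG cells. *GstE2*, abundant in ALG and EG, was far lower in PG. It had 31.8, 36.2, 48.4, 28.8, 27.4, 4.22 and 29.8 CPM in PG of runs 1 to 7, while its lowest value was 549 CPM in EG and 544 CPM in ALG. The difference was −4.57 ± 0.25 against EG and −4.83 ± 0.32 against ALG (adjusted p = 1.35e-08 and 2.19e-08, edgeR). The 2.08% of thinned PG cells with a UMI were below the 2.88% for *alrm*, and whether this level is background or expression was not tested.

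The EG-rich *GstD9* had 16.9 to 72.9 CPM in PG (−4.23 ± 0.26 against EG) and the ALG-rich *GstD3* had 67.6 to 202 CPM (−2.98 ± 0.21 against ALG, 0.70 ± 0.10 against EG). After thinning, 2.38% of PG had a UMI of *GstD9*, again below the 2.88% for *alrm*, and background and expression were not told apart. *GstE1* was lower in PG (−1.80 against EG and −2.34 against ALG), as was *GstE12* (−1.09 and −0.83). *GstS1* took a middle place, with 60.0 ± 24.0 CPM in PG, 196 ± 73.0 CPM in EG and 30.2 ± 7.17 CPM in ALG.

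Members higher in PG than in both EG and ALG included the 3 Theta genes tested and *GstE3*, *GstE6*, *GstE7* and *GstE8*. *GstD2* had 197, 54.6, 148, 19.5, 25.6, 21.1 and 92.8 CPM in PG of runs 1 to 7 and at most 5.49 CPM in EG (4.59 ± 0.27, adjusted p = 2.24e-08, edgeR). It was above EG in every run, but its PG levels were spread widely, with runs 1 and 3 highest and run 4 lowest. *GstT2* had 35.5, 61.7 and 76.0 CPM in PG (lowest, median and highest run) against 6.10, 9.88 and 22.6 CPM in EG (2.45 ± 0.19), and *GstT1* 74.9 ± 12.1 against 25.6 ± 8.49 CPM (1.56 ± 0.14). *GstT3* was higher than in EG by 1.17 and than in ALG by 2.73. *GstE7* had 84.8 ± 52.0 CPM in PG, 24.0 ± 10.6 CPM in EG and 6.51 ± 3.99 CPM in ALG, a rising order in which each step passed the test (2.13 and 1.66). *GstE6* followed the same order with 182, 89.8 and 39.5 CPM, *GstE3* with 157, 96.9 and 51.8 CPM and *GstE8* with 27.6, 11.3 and 7.95 CPM, where the step between EG and ALG was tested for the former 2 only. *GstD1* was the highest member in PG (1293 ± 496 CPM) and above EG by 0.54 and ALG by 0.40, in 6 of 7 runs each. *GstO2* was higher by 0.68 and 0.61, and *GstE13* passed in neither contrast.

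**Figure D3:**
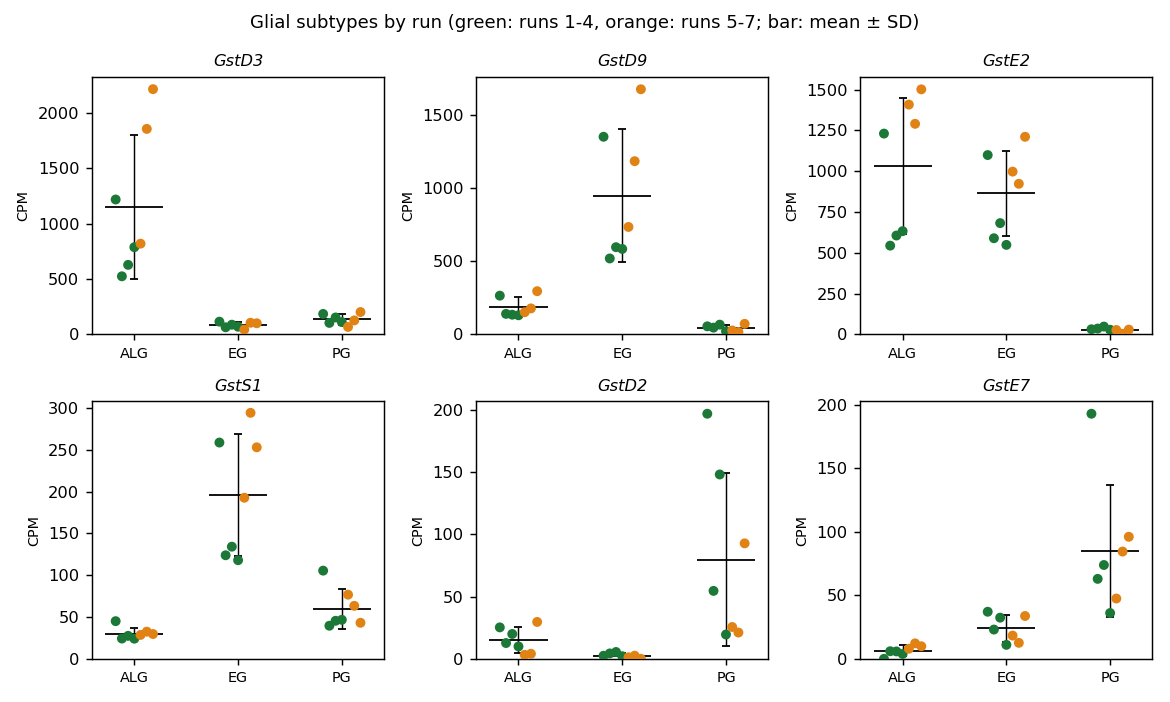
CPM of 6 members in ALG, EG and PG, 1 point a run (runs 1 to 4 green, runs 5 to 7 orange) with mean ± SD, each panel on its own linear axis from 0. *GstD3* is high in ALG only (525 to 2212 CPM), *GstD9* and *GstS1* in EG, *GstE2* in ALG and EG but not PG, and *GstD2* and *GstE7* in PG.

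The largest glial differences held within every run, whereas the levels themselves varied. *GstD3* in ALG and *GstD9* in EG were both lowest in runs 2, 3 and 4, the runs without shallow cells, and the part of depth in this was not tested. Cells of at least 3000 UMIs in all runs gave 3861 ± 1324 CPM for the family in ALG (n = 6 runs) and 4407 ± 1435 CPM in EG.

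KCs are the intrinsic neurons of the mushroom body, the centre of associative olfactory memory, and fall into γ, α′/β′ and α/β subtypes by their axon lobes. Of 27 members tested between KCs and other neurons, 13 were higher and 8 lower, where 38.6% and 38.3% of 8673 genes were. Member and overall medians were 0.42 and 0.0026. *GstD11* stood out. In γ-KCs it had 649, 397, 384, 343, 681, 802 and 827 CPM in runs 1 to 7, in α′/β′-KCs 38.6 to 68.0 CPM, in α/β-KCs 3.41 to 19.9 CPM and in other neurons 1.20 to 7.18 CPM. The γ values were apart from all others, and *GstD11* was the leading gene by fold of all 4 γ-KC clusters although no Gst gene was used to build them.

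The γ-KC level of *GstD11* exceeded that in α/β-KCs 46.4-fold (5.54 ± 0.16, adjusted p = 5.5e-11, edgeR). The α′/β′-KC level exceeded it 4.78-fold (2.26 ± 0.18, adjusted p = 1.82e-07). After thinning, 20.5% of γ-KCs, 2.52% of α′/β′-KCs, 0.532% of α/β-KCs and 0.211% of other neurons had a UMI of *GstD11* (84.1%, 26.2%, 4.70% and 2.40% unthinned, with median depths of 5706.5, 5929, 4486 and 6010 UMIs). For *alrm*, cells with a UMI made up between 2.69% and 3.17% of the 3 KC subtypes after thinning. The neighbours of *GstD11* in the Delta cluster also had more UMIs in γ- than in α/β-KCs, at far lower levels. *GstD7* had 44 UMIs in γ-KCs and 2 in α/β-KCs, *GstD6* had 26 and 2, and *GstD8* had 63 and 4. Too few UMIs were present to test them between subtypes. Against other neurons, where they had 13 and 15 UMIs in 108280 cells, *GstD7* (5.31 ± 0.53) and *GstD6* (5.02 ± 0.49) were higher in KCs, while *GstD8* did not pass (adjusted p = 0.0824).

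*GstE4* had the reverse preference. It had 191, 56.8, 11.4, 30.9, 189, 9.57 and 3.89 CPM in α/β-KCs of runs 1 to 7, 6.41 to 25.0 CPM in α′/β′-KCs, at most 1.22 CPM in γ-KCs and 0.463 to 1.09 CPM in other neurons. Every α/β value was above every γ value, with a difference of −6.19 ± 0.23 for γ against α/β (adjusted p = 3.73e-10, edgeR). Against α/β-KCs, α′/β′-KCs were lower in 6 of 7 runs (−1.98 ± 0.25, adjusted p = 1.56e-05). Runs 1 and 5 were highest and runs 6 and 7 lowest in α/β-KCs, and 4.94% of α/β-KCs had a UMI of it (1.23% after thinning, against 0.0428% of γ-KCs). The runs also differed by line, time and condition, and their part in the spread of *GstE4* was not tested.

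*GstD1* also differed between KC subtypes. It had 180, 253 and 338 CPM in γ-KCs (lowest, median and highest run), 255, 374 and 449 CPM in α′/β′-KCs and 54.8, 66.0 and 92.2 CPM in α/β-KCs. The γ values (1.76 ± 0.12, adjusted p = 9.08e-08) and the α′/β′ values (2.11 ± 0.11, adjusted p = 2.16e-09, edgeR) lay above all α/β values, and α/β-KCs were just above other neurons (23.7 to 58.6 CPM, with overlap). With 10.7% of thinned γ-KCs and 14.1% of α′/β′-KCs carrying a UMI, *GstD1* was above the glial markers in these subtypes. *GstZ2* had the opposite order, with 22.0 ± 4.55 CPM in α/β-, 12.8 ± 2.51 CPM in γ- and 8.64 ± 1.41 CPM in α′/β′-KCs (−0.82 ± 0.08 and −1.35 ± 0.12), all with means below the 26.9 ± 5.33 CPM of other neurons.

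Between γ- and α/β-KCs, 16 members were tested, of which 3 were higher in γ-KCs (19.4% of 6845 genes) and 3 lower (19.3%). Beside those above these were *GstD9* (0.44, adjusted p = 0.00613) and *GstE3* (−0.79, adjusted p = 0.0193). Between α′/β′- and α/β-KCs, 15 were tested, with 2 higher (21.5% of 6650 genes) and 4 lower (24.5%), including *GstE2* (−0.43) and *GstT2* (−0.56). The member medians, −0.15 and −0.12, were near those over all genes, −0.01 and −0.02. Without the clusters made up mostly of 1 run, *GstE4* and *GstE3* did not pass the filter on low counts between γ- and α/β-KCs, which left 1 member lower.

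**Figure D4:**
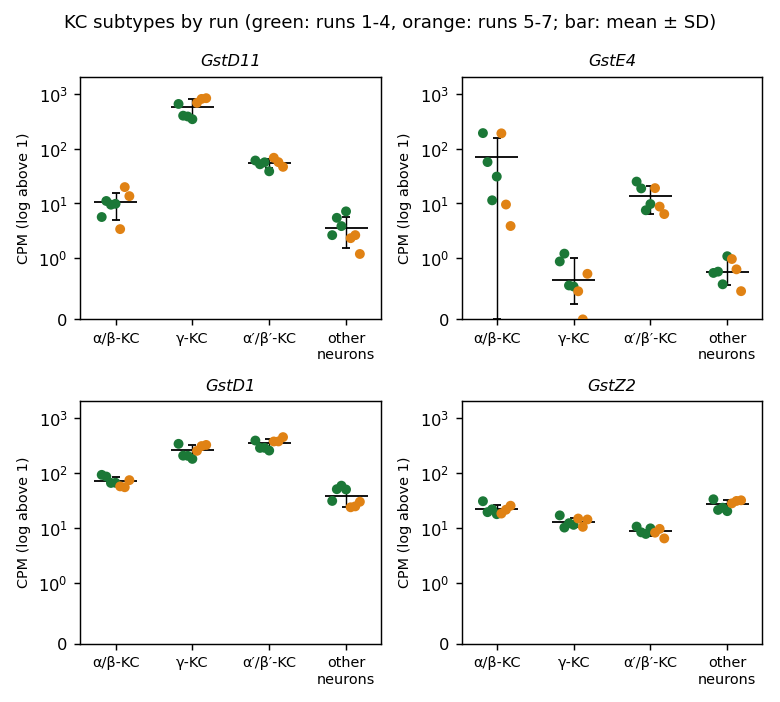
CPM of *GstD11*, *GstE4*, *GstD1* and *GstZ2* in α/β-, γ- and α′/β′-KCs and other neurons, 1 point a run (runs 1 to 4 green, runs 5 to 7 orange) with mean ± SD (cut at 0), on an axis that is linear below and logarithmic above 1 CPM. *GstD11* separates γ-KCs (343 to 827 CPM) from all others, and *GstE4* is spread from 3.89 to 191 CPM within α/β-KCs.

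Glia-rich members were also called higher in KCs than in other neurons, but by little and together with glial markers. *GstE1* (0.53), *GstE2* (0.49), *GstE6* (0.47), *GstE12* (0.42), *GstE3* (0.75) and *GstD3* (0.73) were higher, as were *alrm* (0.48), *wun2* (0.44), *CG9657* (0.49) and *CG1732* (*Gat*, 0.43), while *Eaat1* was lower (−1.13). Thinned shares of KCs with a UMI of *GstE2* (1.88%) and *GstE12* (2.07%) were below that of *alrm* (2.88%). *GstD9* was higher by 1.16 (25.2 against 11.8 CPM), a larger difference than that of any of these markers, with a share of 1.59%, also below that of *alrm*. Whether the shares of *GstE2*, *GstE12* and *GstD9* in KCs are background or expression was not tested either. *GstT1*, higher by 0.16 (adjusted p = 0.0397), missed the threshold under 12 of 16 alternatives.

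Members lower in KCs included those that were low in glia. *GstE13* had 6.59 ± 2.69 CPM in KCs against 30.9 ± 3.25 CPM in other neurons (−2.11 ± 0.20, adjusted p = 1.21e-05, edgeR). *GstO3* (1.40 against 3.96 CPM, −1.49), *GstE11* (1.77 against 4.46 CPM, −1.18) and *GstZ2* (15.2 against 26.9 CPM, −0.76) were also lower without overlap between the groups. *GstO1* (−0.90) and *GstS1* (−0.56) were each lower in 7 of 7 runs, and *GstT2* (−0.24) and *GstO2* (−0.12) were lower by less. *GstO2* had similar means in KC subtypes (33.6 to 38.4 CPM) and other neurons (39.4 CPM).

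Hemocytes, the macrophage-like blood cells that adhere to dissected brains, were 110 cells in 1 cluster with 10 of 12 hemocyte markers raised. Runs 5 and 7 had 1 and 3 cells and were left out. Of 23 members tested against other neurons in the same 5 runs, 11 were higher and 0 lower (9.54% and 3.05% of 8682 genes), with a median of 2.66 against −0.31. *GstE12* had 1295, 281, 511, 237 and 1369 CPM in runs 1, 2, 3, 4 and 6 against 22.4 ± 13.0 CPM (4.83 ± 0.70, adjusted p = 0.00011, edgeR). *GstO3*, low in every other type, had 220, 54.6, 95.3, 25.7 and 446 CPM from 96 UMIs, against 3.97 ± 0.505 CPM in other neurons (4.80 ± 0.53, adjusted p = 5.33e-06). *GstE6* had 151, 35.1, 69.3, 51.3 and 631 CPM against 2.68 ± 1.48 CPM (5.36 ± 0.75, adjusted p = 7.6e-05). Hemocyte values were above all neuronal values for these members and for *GstD3* (3.63 ± 0.52), *GstD1* (2.72 ± 0.48) and *GstE2* (1.71 ± 0.41). After thinning, 19.6% of hemocytes had a UMI of *GstE12* and 10.3% of *GstD1*, against 3.98% for *alrm* and 5.36% for *Gat* (68.2%, 52.7%, 24.5% and 40.9% unthinned). The 3.39% for *GstE2* lay below both of these markers, and whether it is background or expression was not tested. The spread over runs was wide, and values from 6 cells of run 6 were the highest for *GstE12*, *GstE6* and *GstO3*. Without run 3 only 5 members passed, and *GstE1*, *GstE2*, *GstE3*, *GstE7*, *GstE8* and *GstE11* did not. The glial markers *alrm* (0.49, adjusted p = 0.401), *wun2* (−0.60, adjusted p = 0.631), *CG9657* (0.53, adjusted p = 0.422), *Eaat1* (−0.79, adjusted p = 0.253) and *CG1732* (*Gat*, 1.05, adjusted p = 0.0559) did not pass in the same contrast. By edgeR 0 members were also lower at an unadjusted p under 0.05, and by DESeq2 0 were lower, where 3 UMIs in the 5 runs amount to 3.35 CPM.

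Some members were high in 1 or a few of the 162 clusters of other neurons. They were singled out after the values were seen, by at least 15 CPM and 5 times the median cluster plus 1, and are described without a test. A cluster led by *Crz*, *ITP*, *Ilp2* and *Ilp5*, genes of neurosecretory peptides and insulins, had 623, 539, 537, 636, 982, 805 and 1147 CPM of *GstD1* in runs 1 to 7, where the median cluster had 30.1 CPM. That level was found in every run, with runs 1 to 3 below the lowest glial run (635 CPM) and runs 4 to 7 within the glial range. *GstE4* reached 60.3 CPM in a cluster led by *CG11509*, *br*, *rdo* and *acj6*, with 33.1 to 102 CPM in every run. *GstD11* reached 65.9 CPM in a cluster led by *Tk* and *CCHa2* (11.8 to 94.6 CPM over runs), and the next neuronal cluster had 14.2 CPM. *GstE11* had 36.5 CPM in a cluster led by *Oaz* (20.7 to 46.1 CPM over runs), against 1.90 CPM in the median cluster and 32.6 CPM in the next. *GstO3* had 55.0 CPM in a cluster led by *CG15628* and *CG10527*, though 0 in run 7, and 53.8 CPM in the next, led by *Hug* and *Proc*.

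*GstD8*, with 498 UMIs in other neurons, was highest in a neuronal cluster in which it was the leading gene by fold, followed by *foxo*, *unc-4* and *NPF*. It had 151, 1.78, 195, 0, 27.3, 0 and 1761 CPM there in runs 1 to 7, from 44, 1, 121, 0, 6, 0 and 223 UMIs in 21 to 72 cells a run. The next cluster had 2.89 CPM. Runs 4 and 6 thus had no UMI of *GstD8* in 40 and 35 of these cells, and run 7 had most of them in 21 cells.

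*GstD5*, tested in no comparison, had 1134 UMIs in other neurons, of which 1078 were in 1 cluster led by *CG34220*, *CG14645*, *CG34324* and *Muc68D* with 1130 of its 1138 cells from run 3. The level there was 168 CPM, against 0.219 CPM in the other neurons of run 3 and 0.0120 CPM in the other runs. Of all 108280 other neurons, only 0.0489% had a UMI of *GstD5*, so few of the cluster's cells carried this level. The same cluster had 597 CPM of *GstD1* (42.8 CPM in the rest of run 3), 91.0 CPM of *GstD2*, 45.0 CPM of *GstE6*, 19.9 CPM of *GstE9* and 13.2 CPM of *GstT4*. Of the run 3 neurons outside this cluster, 194 UMIs were of *GstD2* (585 in the cluster), 48 of *GstD5*, 24 of *GstE9* (128 in the cluster) and 152 of *GstT4* (85 in the cluster). Neuronal values of *GstD2*, *GstD5* and *GstE9* in run 3 therefore rest largely on this cluster, of which other runs had at most 4 cells. As 0.0526% of other neurons had a UMI of *GstE9*, its values, like those of *GstD5*, rest on few of these cells. Whether the cluster is a cell type of its own was not tested.

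**Figure D5:**
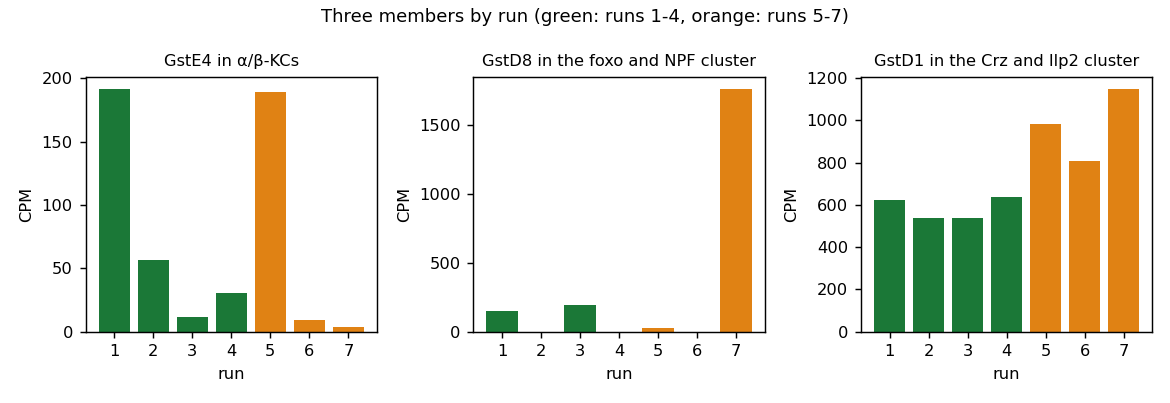
CPM (vertical axis from 0) by run (horizontal axis, runs 1 to 4 green, runs 5 to 7 orange) for *GstE4* in α/β-KCs, *GstD8* in the *foxo* and *NPF* cluster and *GstD1* in the *Crz* and *Ilp2* cluster. *GstE4* is high in runs 1 and 5 (191 and 189 CPM) and *GstD8* in run 7 (1761 CPM), whereas *GstD1* is present in all 7 runs (537 to 1147 CPM).

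*GstD5*, *GstD10*, *GstE5*, *GstE9*, *GstE14* and *GstT4* did not pass the filter on low counts in any comparison. *GstE14*, an enzyme of ecdysteroid synthesis in the prothoracic gland, had 4 UMIs in glia and 59 in other neurons. *GstE5* had 0 UMIs in glia, which allows up to 0.0777 CPM, and 14 in other neurons. *GstD10* had 29 of its 44 glial UMIs in EG, like its neighbour *GstD9*. *GstD4* had 0.867 ± 0.224 CPM in glia and 0.0144 ± 0.0184 CPM in other neurons (5.89 ± 0.60, adjusted p = 3.18e-05, edgeR). In all, 29 members were tested in at least 1 comparison and 28 were called in at least 1, *GstD8* being the exception. The same count over all genes was not made. In glia against other neurons alone, 36.5% of all genes were called higher and 37.8% lower, so the count is not read as a trait of the family. Of 109 called differences, 88 had the same direction in every run, and 106 had it in runs 1 to 4 and in runs 5 to 7, on average, alike. The other 3 were *GstE11* and *GstO1* in glia and *GstE11* in hemocytes (2.00 in runs 1 to 4, −2.37 in run 6). Directions were not counted over all called genes, and a test with the run as a block favours differences alike between runs. The counts of directions therefore do not set the family apart.

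A list of 21 symbols, of which 19 genes were matched, covered glutathione synthesis and turnover and other users of glutathione. It also held the thioredoxin genes *Trxr-1*, *Trx-2* and *TrxT* and the regulators *cnc*, *Keap1* and *maf-S*. *GS* and *CG32495*, both glutathione synthetases, were at 0 UMIs in every type. How the counting treated reads of these 2 genes was not examined, so their 0 UMIs are not read as absent expression. Between glia and other neurons 15 were tested, with 10 higher (36.5% of all genes) and 4 lower (37.8%) and a median of 0.76 (−0.06 over all genes). The catalytic subunit of the rate-limiting ligase of glutathione synthesis, *Gclc*, was higher in glia (118 against 37.4 CPM, 2.08, adjusted p = 2.49e-05), and its modifier *Gclm* less so (48.2 against 35.7 CPM, 0.80, adjusted p = 0.00578). The scaling factors moved this comparison by 0.49. *Gclm* in ALG (9.88 to 28.3 CPM over runs) lay below all values of other neurons (29.7 to 43.2 CPM). Its values in EG (23.8 to 83.0 CPM) and PG (28.4 to 55.7 CPM) overlapped with those of other neurons. The microsomal transferase *Mgstl*, unrelated in sequence to the cytosolic Gsts, was also higher in all glia (152 against 21.8 CPM, 3.32, adjusted p = 9.34e-07), as was the peroxidase *PHGPx* (168 against 84.7 CPM, 1.48). *cnc*, the fly Nrf2 that drives antioxidant genes, was higher in glia (133 against 75.6 CPM, 1.32) and its inhibitor *Keap1* lower (5.95 against 11.9 CPM, −0.48). Lower in glia were also *Cbs* (−1.18) and *Ggt-1* (−1.08).

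Among glia, 5 of 10 listed genes were higher and 1 lower in EG than in ALG, where 18.1% and 12.5% of all genes were. In PG, 4 were higher and 1 lower than in EG (24.8% and 22.5% of all genes), and 7 higher and 1 lower than in ALG (27.3% and 30.3%). *Gclc* was highest in EG (178 ± 76.0 CPM, 59.1 ± 18.2 CPM in ALG and 93.2 ± 45.7 CPM in PG). *Mgstl* was higher in EG (133 ± 30.7 CPM) than in ALG (56.0 ± 16.8 CPM) and highest in PG (337 ± 66.2 CPM), the order of *GstE6* and *GstE7*. KCs had 2 of 15 genes higher and 8 lower than other neurons (38.6% and 38.3% of all genes), and *Gclc* did not pass (35.3 against 37.4 CPM, adjusted p = 0.262). Between γ- and α/β-KCs 4 of 14 were higher and 5 lower (19.4% and 19.3% of all genes), between α′/β′- and α/β-KCs 3 and 5 (21.5% and 24.5%), where the largest difference was that of *Cbs* in α′/β′-KCs (−1.33). In hemocytes 3 of 15 were higher and 0 lower (9.54% and 3.05% of all genes), *Gclc* (1.55), *Mgstl* (2.02) and *PHGPx* (1.28).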

How the data were processed

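Per the labels, single-cell RNA sequencing libraries (10x Genomics 3′) of 7 runs were analysed. The deposited values are unnormalized UMI counts per gene and barcode, produced by the authors using Cell Ranger 3.1.0 and the BDGP6 build. The submitters' processing notes also name Scanpy 1.4.4 and dm6. The authors' table of runs was used only to count the lines, conditions, ZT times and ages of each run. Antibody features of runs 5 to 7, with 0 UMIs, were left out, and 0 columns of values were without a sample.

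Barcodes with fewer than 200 genes or over 30% mitochondrial UMIs were dropped, and 17563 doublets were removed by scrublet at an expected 0.8% for each 1000 barcodes. In runs 6 and 7, where the automatic threshold found almost none, that of run 1 was applied after the counts were seen. Scanpy 1.11.5 scaled cells to 10000 counts, and 58 principal components and 15 neighbours gave 189 Louvain clusters at resolution 8 (igraph 0.11.9). No batch integration was used. A cluster took a name with at least 3 markers at 2 times the level of other cells and in 10% of its cells, and the limits between neurons, glia and mixtures of both (7167 cells, not used) were set after the profiles were seen. The median kept cell had 5612 UMIs, and CPM denominators include mitochondrial UMIs.

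UMIs were summed per run and type (at least 5 cells) and tested with edgeR 4.0.16 (limma 3.58.1, R 4.3.3) after filterByExpr and TMM, with Benjamini-Hochberg adjustment. Types of the same run share a library and pool of brains, which pairs them, so that the run is a block. The fitting step was tested on simulated data. Up to 10 members higher and 10 lower in every run were named per comparison by largest difference, with the 5 highest members of each type, and others are named as such counts required or after their values were seen. Members, gene lists and tests were chosen with earlier results of these data known. Alternatives were DESeq2 1.42.0, its size factors, no filter on low counts, no replicate block, 20% mitochondrial UMIs, at least 3000 UMIs, resolution 4 and each run left out. Leaving out clusters mostly of 1 run, and library totals without scaling factors, were added after seeing the data. Floors of 3 counts and SDs cover counting error and spread between runs, respectively. Sequences of members were not used here.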

Additional observations from a re-analysis of the deposited data

Results flagged for a closer look

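Of 40 levels examined for a run far from the others, 1 stood apart, where chance gives about 1 in 20. *GstE6* in hemocytes had 631 CPM in run 6, against 35.1 to 151 CPM in the other 4 runs with at least 5 hemocytes. The gap to the nearest run was 0.805 of the whole range, above the critical ratio of 0.71 for 5 runs. Run 6 held 6 hemocytes with 65009 UMIs in all, and the part of single cells in this value was not tested.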

How the results depend on the processing

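Of the 109 called differences of single members, 81 stayed past the threshold under every alternative that gave a value, and none reversed. A member not tested under an alternative could not miss the threshold there. The same count was not made over all called genes, so it does not set the family apart. Without the replicate block, 17 missed the threshold, and the counts became 6 higher (13 with it) and 5 lower (8) in KCs against other neurons and 1 lower (2) in EG against ALG. With cells of at least 3000 UMIs, 1 was lower in EG than in ALG. DESeq2, with more genes tested, gave 4 lower in EG against ALG, 7 higher in γ- against α/β-KCs (3 in edgeR) and 4 higher in α′/β′- against α/β-KCs (2 in edgeR). No filter on low counts gave 11 higher (6) and 4 lower in EG against ALG, 8 lower (5) in PG against ALG, and 8 and 5 higher in γ- and α′/β′-KCs against α/β-KCs. Without clusters mostly of 1 run, 1 was lower (3) in γ- against α/β-KCs, since *GstE3* and *GstE4* were no longer tested. Leaving out each run gave 5 to 12 members higher in hemocytes (11), with the lowest count without run 3, and 6 to 9 higher and 2 to 3 lower in EG against ALG. Without scaling factors the median gene of glia against other neurons moved from −0.06 to −0.54, and 19 members were higher in glia (21). The cause of the other changes was not tested. Shares over all genes under the alternatives are not given here, and the number of members tested changed as well. In EG against ALG it was 13 in the main setting, 30 with DESeq2 and 34 without the filter on low counts. The counts under the alternatives are therefore not read as changes of the family. Depth limited hemocytes most (896480 UMIs in 5 runs).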
